A study of Homo sapiens with 6 samples.

Results

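The ribosomal proteins described here are the RNAs of the cytosolic ribosome (symbols beginning RPL for the large and RPS for the small subunit) and of the mitochondrial ribosome (MRPL and MRPS), as read by every array probe whose annotated gene symbol has that form. They are 155 of the 20046 gene symbols on the array, 75 cytosolic and 80 mitochondrial, read by 122 and 115 probes or 237 of 47319 probes in all. The mitochondrial set takes in 2 probes for antisense RNAs and 3 for pseudogenes, because their symbols share the form. The cells were A549, an established human lung adenocarcinoma line, harvested 24 h after lipid transfection with a synthetic mimic. Of the 3 groups, each with 2 arrays, the first received a negative control mimic, the second a mimic of miR-608 and the third one of miR-552-3p, so that all 6 arrays come from transfected cells. Separate cultures for the arrays of 1 group are not stated, and p-values may then rest on technical spread alone. Every level is a signal per total RNA of the cell population, in which fewer cells of a kind and less RNA per cell cannot be told apart.

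Every cell builds 2 kinds of ribosome. Cytosolic ribosomes translate nuclear messages, and most of their protein genes start with a C followed by a run of pyrimidines, the terminal oligopyrimidine (TOP) element, through which their messages are translated together when growth signals are on. Mitochondrial ribosomes translate the few messages of the mitochondrial genome, and their proteins are also encoded in the nucleus, made in the cytosol and imported. A microRNA mimic loads into Argonaute and lowers messages that pair with its seed, bases 2 to 8.

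The mature sequences of the mimicked microRNAs are shown first because their seeds, in capitals, are different. They are from RefSeq on GRCh38.p14.
hsa-miR-608: aGGGGUGGuguugggacagcuccgu
hsa-miR-552-3p: aACAGGUGacugguuagacaa
The gene of hsa-miR-608 lies at chr10:100975000-100975024 on the plus strand, given for the mature sequence, and that of hsa-miR-552-3p at chr1:34669614-34669634 on the minus strand.

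The start sites of 8 members on which the results turn are shown next, each from 20 bases before to 10 bases after the annotated RefSeq start on GRCh38.p14, on the strand of the gene. Capitals mark the pyrimidine run that opens with C and, in RPS27L, the ETS factor motif CCGGAAG. The motif was marked only in windows without such a run. The RPL29 window holds it too, on the other strand (read as CTTCCGG), and it is not marked there.
RPL13A: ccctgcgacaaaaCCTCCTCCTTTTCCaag
RPL28: tcgcctcgcccctcgCCTTCCTCTTTCCgt
RPL29: tgctgcaccgcagCCCCTTTCTCTTCCggt
RPS24: ttggccggcgaatcgtggttCTCTTTTCCT
RPS27: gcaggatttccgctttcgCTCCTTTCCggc
RPS27L: cCCGGAAGttgatgccgagcgcagatcgct
MRPS11: gacggaaactgactggggtcaattcaagtc
MRPS35: cttgtcccctccggcttgccgtcctcgcag
These windows lie at chr19:49487588-49487617 (plus strand) for RPL13A, chr19:55385912-55385941 (plus) for RPL28, chr3:51995886-51995915 (minus) for RPL29 and chr10:78033843-78033872 (plus) for RPS24. Those of RPS27, RPS27L, MRPS11 and MRPS35 lie at chr1:153990742-153990771 (plus), chr15:63157468-63157497 (minus), chr15:88467688-88467717 (plus) and chr12:27710812-27710841 (plus).

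The cytosolic and mitochondrial genes differed in this element. A C followed by at least 6 pyrimidines, starting within 10 bases of the annotated start on the strand of the gene, was held by 66.7% of the 75 promoters of 63 cytosolic symbols in the RefSeq table. It was held by 9.52% of the 84 promoters of 68 mitochondrial symbols and by 13.5% of all 35116 promoters in the table. The letters CCGGAAG on either strand, a motif of ETS family factors, were in 34.7% of the cytosolic and 38.1% of the mitochondrial windows of 300 bases, against 10.3% of all. RPS27L, a copy of RPS27, has no such pyrimidine run in the window shown, while RPS27 has one of 9 bases. Among cytosolic genes with a probe called in at least 1 comparison, 50% of 24 promoters held the pyrimidine run, and among those with no probe called 78.3% of 46 did. These shares describe letters in a window and no test was made on them.

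Of the 237 probes, 114 cytosolic ones (71 symbols) and 105 mitochondrial ones (78 symbols) reached a detection p below 0.05 on 2 or more arrays and were kept for testing, among 20749 kept probes in all. The array median signal lay between 181.7 and 200.7, and each array detected 18550 to 19758 probes. Arrays of a group correlated at 0.993 to 0.994 across probes and arrays of different groups at 0.968 to 0.978. All 6 epithelial markers (KRT8, KRT18, KRT19, KRT7, EPCAM and CDH1) were detected on all 6 arrays, with summed signals from 48177 to 62811. Of 4 immune markers 1 (CD14) and of 6 fibroblast and endothelial markers 1 (COL1A1) was detected, with PTPRC, CD3E, LYZ, COL3A1, PDGFRB, PECAM1, CDH5 and VWF detected on none. KRT18 was dim, with a mean log2 level of 6.83 beside 9.33 for CD14 and 7.15 for COL1A1. The other epithelial markers lay between 11.34 and 14.41.

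Transcripts of the cytosolic ribosome were among the brightest of these cells. Their probes carried between 4.19% and 4.38% of the summed signal on each array, and the mitochondrial probes between 0.735% and 0.759%. These shares take the deposited signals of all probes, kept or not, in the class and in the total. The cytosolic share was 4.23% and 4.25% in the control arrays, 4.19% and 4.26% with miR-608 and 4.38% and 4.29% with miR-552-3p. Both miR-552-3p arrays lay above the other 4, and the miR-608 arrays lay on either side of the control. On each array 4 to 9 cytosolic probes gave a signal above 60000, where the highest signal of any probe was between 66332 and 67404. Within groups, the median SD between arrays was 0.048 to 0.060 log2 units for cytosolic and 0.050 to 0.060 for mitochondrial probes, against 0.086 to 0.089 for all kept probes.

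Members without a kept probe were RPL10 (both probes), RPL10L, RPL22L1, RPL3L, MRPL23-AS1 and MRPL42P5. RPL10L, RPL22L1 and RPL3L are copies of other ribosomal protein genes. For RPL36A, RPL37, RPS27L, MRPL3, MRPL39, MRPL4, MRPL44, MRPL55, MRPS12, MRPS18C and MRPS31P5, 1 probe was not kept and at least 1 other was.

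As classes, the ribosomal proteins moved little. With miR-608 the median log2 fold change against the control was -0.040 over the cytosolic probes, whose middle 50% lay between -0.19 and 0.05, and -0.00067 over the mitochondrial probes, between -0.24 and 0.13. The median of all kept probes was 0.019, with the middle 50% between -0.25 and 0.27. With miR-552-3p the medians were 0.0024 (cytosolic, -0.10 to 0.10) and -0.0035 (mitochondrial, -0.16 to 0.20), beside 0.026 for all probes (-0.26 to 0.28). Median scaling in place of quantile normalization moved the cytosolic medians to 0.063 and 0.22 and the mitochondrial ones to 0.081 and 0.18, while the median of all kept probes moved to 0.081 and 0.12 and that of all kept probes with a mean log2 level of 12 or more to 0.15 and 0.24. The sign of a class median therefore depends on the scaling.

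**Figure D1:**
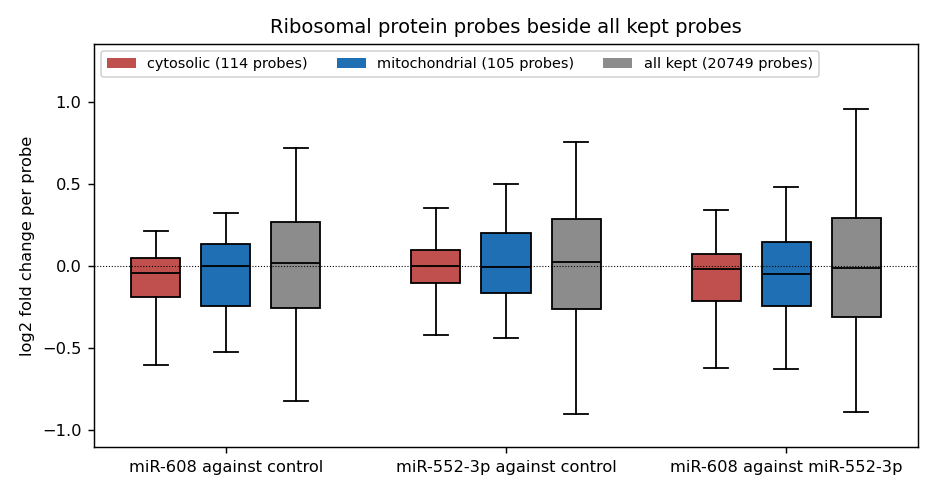
Log2 fold change per probe (vertical axis) for cytosolic, mitochondrial and all kept probes in the 3 comparisons. Boxes span the middle 50% with the median as a line, and whiskers run from the 5th to the 95th percentile. The boxes of both ribosomal classes are narrower than that of all kept probes, and every median lies between -0.05 and 0.03.

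Few cytosolic probes were called, that is, had an adjusted p under 0.05 in limma with Benjamini-Hochberg adjustment over all kept probes. With miR-608, 15 of 114 were called (13.2%), 1 higher and 14 lower, where 28.4% of all kept probes were called, 14% higher and 14.4% lower. With miR-552-3p, 14 of 114 were called (12.3%), 5 higher and 9 lower, where the background was 30.9%, 14.7% higher and 16.1% lower. Between the mimics 19 of 114 differed (16.7%), 6 higher and 13 lower with miR-608 than with miR-552-3p, where 36.5% of all kept probes did, 18.3% higher and 18.2% lower. Of the cytosolic probes 87 (76.3%) were called in none of the 3 comparisons, beside 48.3% of all kept probes. Mimic and control arrays stood apart, with no overlap, for 64 cytosolic probes with miR-608 (56.1%, beside 65.7% of all kept probes) and for 60 with miR-552-3p (52.6%, beside 67%).

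With these settings, mitochondrial probes were called more often than cytosolic ones in each comparison, and less often than all kept probes. With miR-608, 19 of 105 were called (18.1%), 6 higher and 13 lower. With miR-552-3p, 23 of 105 were called (21.9%), 12 higher and 11 lower. Between the mimics 28 of 105 differed (26.7%), 8 higher and 20 lower with miR-608. The difference between the classes in these shares was not tested. Of the mitochondrial probes 61 (58.1%) were called in none of the comparisons. Mimic and control arrays did not overlap for 74 of them with miR-608 (70.5%, beside 65.7% of all kept probes). With miR-552-3p this held for 81 (77.1%, beside 67%), so that both shares lay above those of all kept probes. Among kept probes with a mean log2 level of 12 or more the shares were 73.9% and 72.1%. The median mean log2 level was 11.57 for the mitochondrial probes and 8.65 for all kept probes. A change of at least 2-fold was called for 4 cytosolic probes with miR-608, where 4.77% of all kept probes had one, and for 2 with miR-552-3p, where 6.07% did. No mitochondrial probe changed by as much against the control, the widest changes being -0.90 with either mimic (MRPL57 with miR-608 and MRPS11 with miR-552-3p). Between the mimics 4 cytosolic and 3 mitochondrial probes differed by at least 2-fold, beside 8.25% of all kept probes. With an intensity trend in eBayes, mitochondrial probes were called more often than all kept probes against the control. At that setting 43 of 105 were called with either mimic, beside 7776 (miR-608) and 8069 (miR-552-3p) of 20749 kept probes.

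The counts depended on single arrays and on the scaling. With 1 array left out, the 15 cytosolic calls with miR-608 became 3 without control replicate 1, 4 without control replicate 2, 6 without either miR-608 array and 10 without either miR-552-3p array. The 14 with miR-552-3p became 5 without either control array, 5 and 4 without miR-552-3p replicates 1 and 2 and 10 without either miR-608 array. The 19 mitochondrial calls with miR-608 became 5 and 6 without the control replicates, 5 without either miR-608 array and 11 without either miR-552-3p array, and the 23 with miR-552-3p became 8 and 7 without control replicates 1 and 2, 6 and 7 without miR-552-3p replicates 1 and 2 and 17 without either miR-608 array. Under median scaling the cytosolic calls were 5 higher and 11 lower with miR-608, and 25 higher and 4 lower with miR-552-3p. The mitochondrial ones were then 15 higher and 7 lower, and 28 higher and 5 lower, and those of all kept probes 3636 higher and 2601 lower, and 4400 higher and 2877 lower, so that the balance of directions depends on the scaling. The calls that held under each alternative that tested them, single arrays left out included, were 2 cytosolic and 3 mitochondrial ones with miR-608 and 4 and 5 with miR-552-3p, and each is named as such where it is described.

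**Figure D2:**
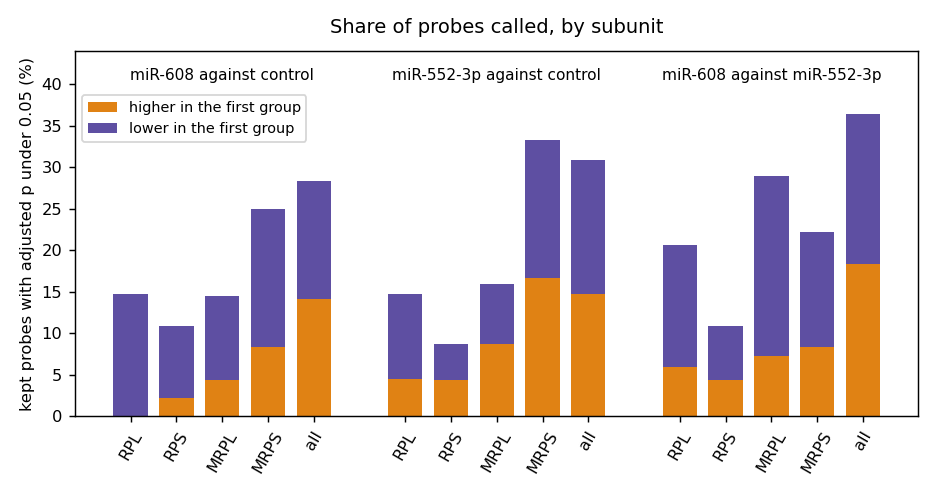
Share of kept probes called in each comparison (vertical axis, percent), by symbol prefix and for all kept probes, split into higher and lower in the group named first. RPL, RPS and MRPL stand below the bar of all kept probes in every comparison, and MRPS stands above it with miR-552-3p only (33.3% beside 30.9%).

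Cytosolic probes of different brightness were called at different rates with miR-608. Of the 80 cytosolic probes with a mean log2 level of 12 or more, 2 were called with miR-608 (2.5%), beside 26% of all kept probes at that level. Of the 34 under that level 13 were called (38.2%), beside 28.7% of all kept probes there. With miR-552-3p, 9 of the 80 (11.2%, beside 25.7%) and 5 of the 34 (14.7%, beside 31.6%) were called. Between the mimics 7 of the 80 (8.75%, beside 34.1%) and 12 of the 34 (35.3%, beside 36.8%) differed. The sets at 12 or more are not matched in level. Their median mean log2 level was 14.75 for the cytosolic probes and 13.06 for all kept probes. The level of 12 was chosen after the values had been seen, and the split is a description.

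**Figure D3:**
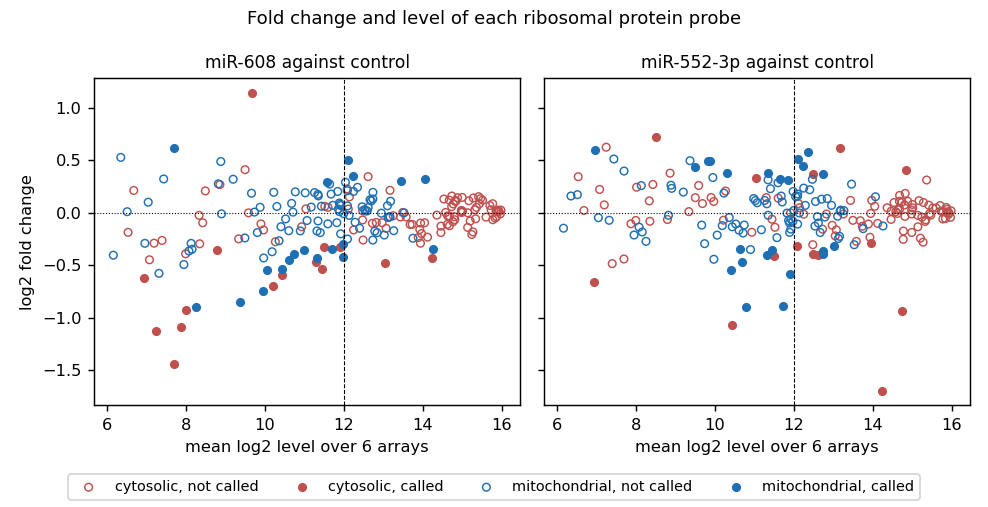
Log2 fold change (vertical axis) against the mean log2 level over the 6 arrays (horizontal axis) for each kept ribosomal protein probe, cytosolic in red and mitochondrial in blue, with called probes filled. The dashed line marks a level of 12. With miR-608 the filled cytosolic points lie mostly to its left, and with miR-552-3p RPL13A and RPL30 stand far below the others to its right.

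Among proteins of the large cytosolic subunit, RPL13A fell most with miR-552-3p. Its log2 levels were 14.88 and 14.99 on the control arrays, 14.51 and 14.50 with miR-608 and 13.26 and 13.22 with miR-552-3p. The 3 groups do not overlap, the control being highest and miR-552-3p lowest. RPL13A, which outside the ribosome is also part of a complex that silences inflammatory messages, was lower by 1.70 ± 0.08 (SE) with miR-552-3p, or 3.24-fold (limma adjusted p = 0.000997). It was called lower with miR-608 too, with a log2 fold change of -0.43 ± 0.08 (adjusted p = 0.0168), a call that was lost without either control or either miR-608 array (adjusted p up to 0.078). Between the mimics it was 2.41-fold higher with miR-608 (adjusted p = 0.000763).

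RPL28 had log2 levels of 10.94 and 11.01 in the control, 10.30 and 10.47 with miR-608 and 9.97 and 9.84 with miR-552-3p. The groups again do not overlap and have the same order. RPL28, a structural protein of the large subunit, changed by -1.07 ± 0.10 with miR-552-3p (adjusted p = 0.00237) and by -0.59 ± 0.10 with miR-608 (adjusted p = 0.0128, up to 0.068 with 1 array left out). RPL30 had log2 levels of 15.06 and 14.99 in the control, 15.02 and 15.15 with miR-608 and 14.15 and 14.02 with miR-552-3p. Only the miR-552-3p arrays of RPL30 stand apart. RPL30, whose yeast counterpart binds its own transcript and regulates its splicing, fell by 0.94 ± 0.09 on the log2 scale with miR-552-3p (adjusted p = 0.00279). With miR-608 its change was 0.06 ± 0.09 and was not called, and the mimics differed 2.00-fold (adjusted p = 0.00172). The miR-552-3p calls of RPL13A, RPL28 and RPL30 held with each array left out in turn and under each alternative run. Each of these genes was read by a single kept probe.

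Besides RPL13A and RPL28, other large subunit genes were called lower with miR-608. RPL29 probe ILMN_1737517 read 8.22 and 8.25 in the control, 7.47 and 7.16 with miR-608 and 8.51 and 8.46 with miR-552-3p. A second RPL29 probe, ILMN_1771051, read 8.59 and 8.05, then 7.28 and 6.46, then 7.83 and 7.93. Both put the miR-608 arrays lowest. RPL29, a small protein at the surface of the large subunit, changed by -0.93 ± 0.12 (adjusted p = 0.00663) and -1.45 ± 0.31 (adjusted p = 0.026) by these probes, and the call of the second was lost with either control array, either miR-552-3p array or miR-608 replicate 2 left out (adjusted p up to 0.115). With miR-552-3p the changes were 0.24 and -0.44 and were not called.

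RPL36A read 8.08 and 8.45 in the control, 7.22 and 7.13 with miR-608 and 8.08 and 8.24 with miR-552-3p. Its miR-608 arrays lie below the other 4. It is a large subunit protein near the tRNA exit site, and it changed by -1.09 ± 0.14 with miR-608, or 2.13-fold lower (adjusted p = 0.00689). RPL36A, read by a single kept probe, and RPL29 were dim here, beside a median mean log2 level of 13.94 over the cytosolic probes. The lowest level of a detected probe was between 6.14 and 6.25, by array. RPL36A and probe ILMN_1737517 of RPL29 were the 2 of the 15 cytosolic calls with miR-608 that held under each alternative run, single arrays left out included. Other falls with miR-608 were read by 1 probe of a gene whose other probes were not called. RPL37A probe ILMN_1808757, detected on 1 of the 2 miR-608 arrays, changed by -1.13 ± 0.23 (adjusted p = 0.0211, up to 0.0956 without a control array) and its other probe by 0.15. RPL34 changed by -0.70 ± 0.11 and 0.04 by its probes, and RPL6 by -0.54 ± 0.09, -0.01 and -0.04. Both calls were lost with some single arrays left out (adjusted p up to 0.0646 and 0.0629).

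The rises of large subunit genes with miR-552-3p were likewise each read by 1 of 2 kept probes. RPL36 probe ILMN_1771462 read 8.04 and 8.33 in the control, 8.44 and 8.34 with miR-608 and 8.88 and 8.92 with miR-552-3p, a change of 0.72 ± 0.12 (adjusted p = 0.0105, up to 0.055 without a miR-552-3p array). The other probe of RPL36 changed by 0.05 and was not called. RPL13 and RPL34 were called higher by 0.37 and 0.33 by 1 probe each, and both calls were lost with any 1 array left out (adjusted p up to 0.176 and 0.163). RPL12, a protein of the factor-binding stalk base, changed by -0.29 ± 0.08 with miR-552-3p (adjusted p = 0.0392). That call was lost with any 1 array left out, and under median scaling the value was -0.07 (adjusted p = 0.535).

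In the small cytosolic subunit, calls were fewer. RPS26, which lies where the message leaves the ribosome and is mutated in Diamond-Blackfan anaemia, was called lower with miR-608 by both of its probes. Probe ILMN_2209027 read 13.17 and 13.39 in the control, 12.91 and 12.68 with miR-608 and 13.08 and 13.03 with miR-552-3p. Its control arrays are highest and do not overlap the others. It changed by -0.48 ± 0.12 with miR-608 (adjusted p = 0.0382), a call lost with any 1 array left out (adjusted p up to 0.144), and probe ILMN_1755664 by -0.62 ± 0.16 (adjusted p = 0.0439). With miR-552-3p the second probe changed by -0.66 ± 0.16 (adjusted p = 0.0344) and the first by -0.22, which was not called. The calls of ILMN_1755664 were lost with most single arrays left out (adjusted p up to 0.176 and 0.146).

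RPS24, another gene of Diamond-Blackfan anaemia, read 11.37 and 11.43 in the control, 10.93 and 10.93 with miR-608 and 11.51 and 11.59 with miR-552-3p by probe ILMN_2399893. Its miR-608 arrays lie below the other 4, with a change of -0.47 ± 0.08 (adjusted p = 0.0119, up to 0.0628 with 1 array left out), while its other probe changed by 0.15 and was not called. RPS7, a protein of the small subunit body, was called at -0.36 ± 0.09 with miR-608 (adjusted p = 0.0365, up to 0.138 with 1 array left out). The only cytosolic rise called with miR-608 was that of RPS29, a zinc-binding protein of the small subunit head, by 1 of its 4 probes. That probe, ILMN_2298818, read 9.07 and 9.48 in the control, 10.47 and 10.35 with miR-608 and 9.51 and 9.21 with miR-552-3p, a change of 1.14 ± 0.18 (adjusted p = 0.0104, 0.0559 without miR-608 replicate 1). The other 3 RPS29 probes changed by 0.01, 0.01 and -0.15.

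With miR-552-3p, RPS15A rose by probe ILMN_2255310. Its levels were 12.87 and 12.91 in the control, 13.08 and 13.12 with miR-608 and 13.50 and 13.53 with miR-552-3p. The 3 groups do not overlap. RPS15A, a core protein of the small subunit, changed by 0.62 ± 0.07 with miR-552-3p (adjusted p = 0.0042). That call held under each alternative that tested this probe, and the run with 1 probe a gene took another RPS15A probe. The other probes changed by 0.11 and 0.18 and were not called. RPS23, a protein of the decoding centre, changed by -0.32 ± 0.08 with miR-552-3p (adjusted p = 0.0344, up to 0.133 with 1 array left out, and -0.16 with adjusted p = 0.194 under median scaling) and by 0.23 with miR-608, which was not called, and differed between the mimics by 0.55 ± 0.08 (adjusted p = 0.00586).

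**Figure D4:**
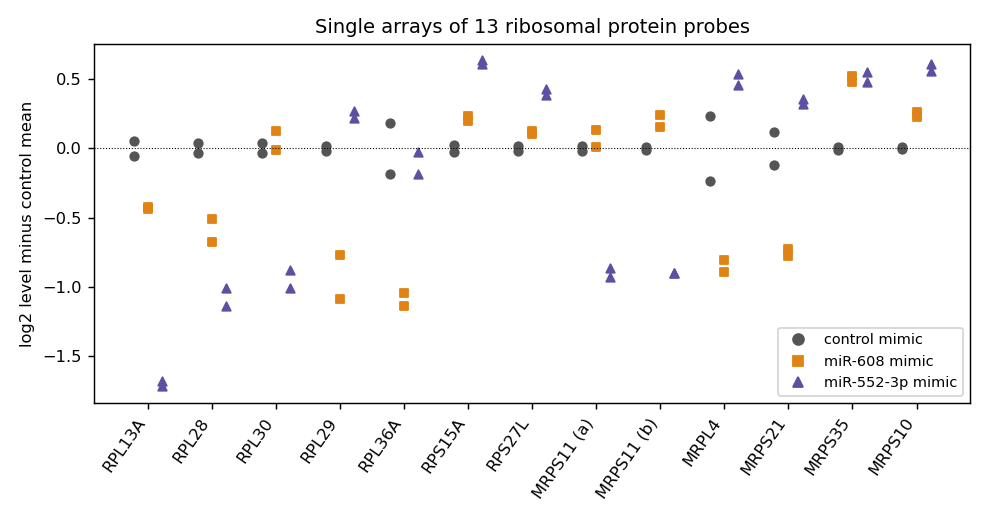
Log2 level of each array minus the mean of the control arrays (vertical axis) for 13 probes, with circles for the control mimic, squares for miR-608 and triangles for miR-552-3p. MRPS11 is shown by both of its probes. The miR-552-3p arrays stand apart for RPL13A, RPL30 and MRPS11, the miR-608 arrays for RPL29, RPL36A, MRPL4 and MRPS21, and both mimics lie above the control for MRPS35.

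Several members are copies of other ribosomal protein genes, and some were called where the gene they copy was not. RPS27L, a copy of RPS27 that is induced by p53, read 14.69 and 14.65 in the control, 14.79 and 14.77 with miR-608 and 15.10 and 15.06 with miR-552-3p. Its change with miR-552-3p was 0.41 ± 0.07 (adjusted p = 0.0132, up to 0.0692 with 1 array left out), while the 3 RPS27 probes changed by -0.08, -0.13 and 0.05 and were not called. RPL39L, the copy of RPL39 known from the testis, read 12.68 and 12.72 in the control, 12.46 and 12.42 with miR-608 and 12.27 and 12.35 with miR-552-3p by probe ILMN_2108357. It was called lower with miR-552-3p by both probes, by -0.39 ± 0.08 and -0.41 ± 0.08 (adjusted p = 0.0179 and 0.0205, up to 0.0883 and 0.0962 with 1 array left out). Under median scaling the values were -0.19 and -0.26, and neither was called. RPL39 changed by -0.01. Differences between a copy and the gene it copies were not tested.

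The mimics differed in opposite directions at RPL26 and its copy RPL26L1. By probe ILMN_2110532, RPL26L1 read 12.63 and 12.64 in the control, 12.89 and 13.07 with miR-608 and 12.30 and 12.15 with miR-552-3p, and was higher with miR-608 than with miR-552-3p by 0.75 ± 0.10 (adjusted p = 0.00451). RPL26 read 10.23 and 10.35, then 9.98 and 10.04, then 10.45 and 10.54, and its difference, miR-608 minus miR-552-3p, was -0.48 ± 0.09 (adjusted p = 0.0109, up to 0.0581 with 1 array left out). The other RPL26L1 probe differed between the mimics by 0.27 and was not called. RPL7L1 and RPL7 were not called in any comparison, nor were RPL3, RPL22 and RPS4X with its copies RPS4Y1 and RPS4Y2. Near-identical copies and processed pseudogenes share sequence with most cytosolic members, and a probe may read more than the gene it is named for.

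In the small mitochondrial subunit, MRPS11 fell with miR-552-3p by both of its probes. Probe ILMN_1722905 read 12.01 and 11.97 in the control, 12.12 and 12.01 with miR-608 and 11.13 and 11.07 with miR-552-3p. Probe ILMN_2405915 read 10.99 and 11.02, then 11.16 and 11.24, then 10.10 and 10.11. In both, the miR-552-3p arrays lie below the other 4. MRPS11, the counterpart of bacterial protein S11 on the platform of the small subunit, changed by -0.89 ± 0.08 (adjusted p = 0.0023) and -0.90 ± 0.08 (adjusted p = 0.0019). Each call held under every alternative that tested its probe. With miR-608 the changes were 0.07 and 0.20 and were not called, and the mimics differed by 0.97 and 1.10 (adjusted p = 0.00137 and 0.00087).

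MRPS35 rose with both mimics. It read 11.77 and 11.75 in the control, 12.24 and 12.28 with miR-608 and 12.31 and 12.23 with miR-552-3p. The mimic arrays overlap one another and lie above the control. The changes of MRPS35, a protein of the small subunit, were 0.50 ± 0.08 with miR-608 (adjusted p = 0.0094, up to 0.0537 with 1 array left out) and 0.51 ± 0.08 with miR-552-3p (adjusted p = 0.00759), and the second call held under each alternative run. MRPS22 also lay above the control with both mimics, with changes of 0.35 and 0.44 (adjusted p = 0.0238 and 0.0113, up to 0.103 and 0.0617 with 1 array left out). MRPS16, whose loss causes a mitochondrial translation defect, was called lower with both, by -0.45 and -0.34 (adjusted p = 0.0138 and 0.0273, up to 0.0688 and 0.107 with 1 array left out). Both comparisons use the same control arrays, so that they are not independent of each other.

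MRPS10 read 12.08 and 12.06 in the control, 12.30 and 12.33 with miR-608 and 12.68 and 12.63 with miR-552-3p. Its groups do not overlap, and the change with miR-552-3p was 0.58 ± 0.07 (adjusted p = 0.00491) and held under each alternative run, while that with miR-608, 0.24, was not called (adjusted p = 0.0626). MRPS7, a protein of the head of the small subunit, changed by -0.58 ± 0.10 with miR-552-3p (adjusted p = 0.0124, up to 0.0668 with 1 array left out). MRPS21 read 9.96 and 10.20 in the control, 9.31 and 9.36 with miR-608 and 10.40 and 10.43 with miR-552-3p by probe ILMN_1660292. The 3 groups do not overlap, miR-608 being lowest. Its change with miR-608 was -0.75 ± 0.10 (adjusted p = 0.00759), a call that held under each alternative that tested this probe. The other MRPS21 probe, which stood for the gene in the run with 1 probe a gene, changed by 0.11 and was not called. MRPS33 rose by 0.61 ± 0.15 with miR-608 by 1 of 2 probes (adjusted p = 0.0392, up to 0.149 with 1 array left out), and MRPS12, of the decoding centre, was lower by -0.34 and -0.30 on the log2 scale by 2 of 3 kept probes (adjusted p up to 0.108 and 0.134 with 1 array left out).

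The large mitochondrial subunit gave its widest difference between the mimics at MRPL4. Probe ILMN_2352042 read 9.71 and 9.25 in the control, 8.68 and 8.59 with miR-608 and 9.94 and 10.02 with miR-552-3p. Its 3 groups do not overlap, although the control arrays are spread more widely than the others. MRPL4, the counterpart of a bacterial protein that lines the exit tunnel, changed by -0.85 ± 0.16 with miR-608 (adjusted p = 0.0192, up to 0.0863 without a miR-608 array) and by 0.50 with miR-552-3p, which was not called, and the mimics differed by -1.35 ± 0.16 (adjusted p = 0.00358). Its other kept probe, ILMN_1804207, was called with miR-552-3p at 0.59 ± 0.14 (adjusted p = 0.0333, up to 0.124 with 1 array left out) and between the mimics at -0.89 ± 0.14 (adjusted p = 0.00849). The differences between the mimics held with each array left out in turn.

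MRPS18B, MRPL16 and MRPL37 also differed between the mimics. MRPS18B read 11.99 and 12.11 in the control, 11.61 and 11.64 with miR-608 and 12.31 and 12.19 with miR-552-3p by probe ILMN_2121282, and its miR-608 arrays lie below the other 4. The mimics differed by -0.63 ± 0.09 by this probe (adjusted p = 0.00526) and by -0.67 ± 0.10 by ILMN_1721337 (adjusted p = 0.00723). MRPS18B is 1 of 3 related proteins of the mitochondrial ribosome. MRPL16 was higher with miR-608 than with miR-552-3p by 0.53 ± 0.08 (adjusted p = 0.00664) and MRPL37 by 0.49 ± 0.08 (adjusted p = 0.00775), and both calls held with each array left out. MRPS28 differed by -0.45 ± 0.08 (adjusted p = 0.00924, 0.0507 without miR-608 replicate 2).

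MRPL35 was lower with miR-608 by 2 of its 3 probes, with changes of -0.55 ± 0.07 (adjusted p = 0.0073) and -0.40 ± 0.08 (adjusted p = 0.0196). The first call held under each alternative that tested its probe, and the second was lost with some single arrays left out. The third probe, which stood for the gene in the run with 1 probe a gene, was not called. MRPL57, at -0.90 ± 0.17, was called by 1 of 2 probes (adjusted p = 0.0189, up to 0.0943 without a control array). MRPL12, of the stalk that recruits translation factors, changed by -0.43 ± 0.11 with miR-608 (adjusted p = 0.0395), and MRPL33 by 0.30 and 0.32 by its probes. The MRPL12 call was lost with most single arrays left out, and both MRPL33 calls were lost with any 1 array left out. With miR-552-3p, MRPL9 read 10.05 and 10.11 beside 10.65 and 10.62 in the control and 10.45 and 10.55 with miR-608, a change of -0.55 ± 0.08 (adjusted p = 0.0072) that held under each alternative run. MRPL48 and MRPL42 were called higher with miR-552-3p at 0.50 and 0.49, and MRPL55 and MRPL38 lower at -0.47 and -0.40, and these 4 calls were lost with some single arrays left out (adjusted p up to 0.119, 0.132, 0.125 and 0.0846). The antisense RNA MRPL20-AS1 changed by -0.53 ± 0.07 with miR-608 (adjusted p = 0.00785), held under each alternative run, and it is no ribosomal protein although its symbol has the form.

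By subunit, the called probes of the large cytosolic subunit were 0 higher and 10 lower of 68 with miR-608 (14.7%) and 3 higher and 7 lower with miR-552-3p (14.7%), beside 28.4% and 30.9% of all kept probes. Those of the small cytosolic subunit were 1 and 4 of 46 (10.9%), then 2 and 2 (8.7%). By symbol prefix, the MRPL probes called were 3 higher and 7 lower of 69 (14.5%), then 6 and 5 (15.9%). The MRPS probes called were 3 higher and 6 lower of 36 (25%), then 6 and 6 (33.3%). The prefix was not checked against the subunit that holds the protein, and the MRPL falls with miR-608 include the antisense RNA MRPL20-AS1. Of all kept probes 14% were called with both mimics. Among cytosolic probes 4 were (3.51%), of RPL13A, RPL28, RPL39L and RPS26, all lower with both. Among mitochondrial probes 3 were (2.86%), with MRPS16 lower and MRPS22 and MRPS35 higher. As the mimics share their control arrays, these counts are given side by side and no test was made of them.

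Probes of a gene often differed in their call. Genes read by a single kept probe, among them RPL13A, RPL28, RPL30, RPL36A, MRPS10, MRPS35 and MRPL9, could not be compared in this way. Of 32 cytosolic genes with several kept probes, 10 had a call with miR-608 and in 2 of these (RPL29 and RPS26) every kept probe was called. With miR-552-3p these were 8 and 1 (RPL39L). Of 23 mitochondrial genes with several kept probes, 8 had a call with miR-608 and in 1 (MRPL33) every kept probe was called, and with miR-552-3p 7 had one and in 2 (MRPS11 and MRPS27) every probe was. No gene had probes called in opposite directions in a comparison. With the probe of highest mean alone standing for each gene, 5 of 71 cytosolic genes and 14 of 78 mitochondrial genes were called with miR-608. With miR-552-3p the counts were 9 and 19. At that setting 29.2% and 31.4% of all named genes and unnamed probes were called.

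**Figure D5:**
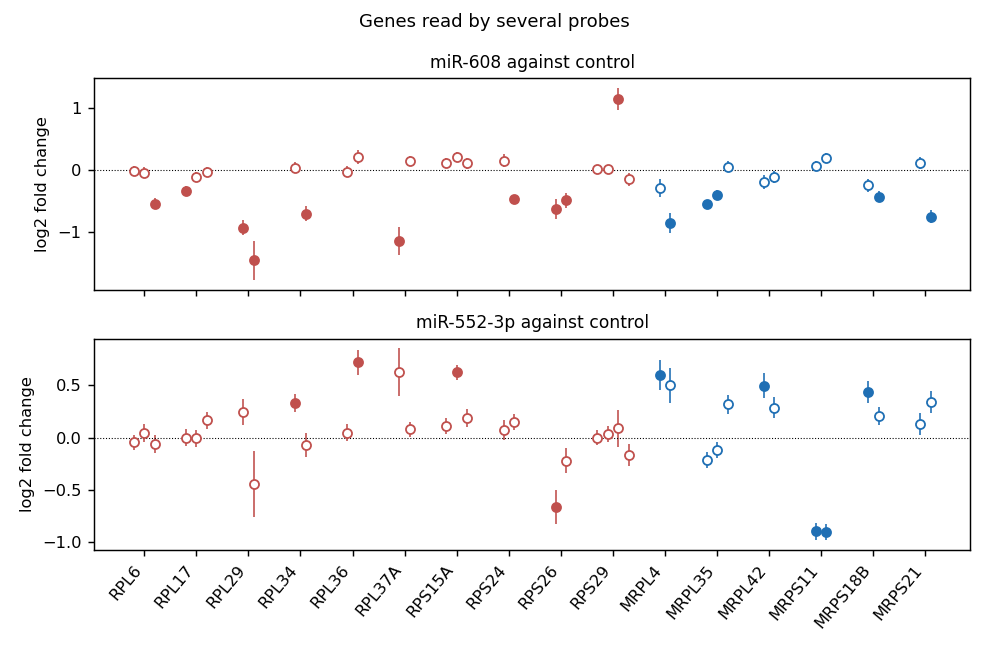
Log2 fold change with SE (vertical axis) of each kept probe of 16 member genes with several probes, for each mimic against the control, cytosolic genes in red and mitochondrial genes in blue, with called probes filled. The probes of MRPS11 lie together at -0.89 and -0.90 with miR-552-3p, while 1 RPS29 probe stands at 1.14 with miR-608 and the other 3 near 0.

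Other genes of the pathway were taken from lists that are no members. The alternatives, single arrays left out included, were not read out for these lists or their genes. How far their counts and directions hold is therefore not known. Of 10 probes for 7 ribosomal subunit genes whose symbols have another form, 0 were called by limma in any comparison, with 1, 2 and 0 at an unadjusted p under 0.05 for miR-608, miR-552-3p and the mimics against each other. Of 29 probes for translation factors and other messages with the TOP element, 0 were higher and 8 lower with miR-608 (27.6% called, beside 28.4% of all kept probes), among them the splicing factor HNRNPA1 at -1.12 ± 0.10 (adjusted p = 0.00259) and, by its other probe, -0.61, and 1 of the 4 probes of the elongation factor EEF1A1 at -0.55 ± 0.08 (adjusted p = 0.00846). With miR-552-3p 0 were higher and 4 lower (13.8%, beside 30.9%), the same EEF1A1 probe, ILMN_3251737, at -1.08 ± 0.08 (adjusted p = 0.00143) and 3 probes of the histone chaperone NAP1L1. The other 3 EEF1A1 probes were not called, with changes from -0.03 to -0.01 for miR-608 and from -0.05 to 0.01 for miR-552-3p.

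Nucleolar assembly factors, which build the subunits, were called lower more often than higher with miR-608 (1 higher and 8 lower of 43 probes, 20.9% called, beside 28.4% of all kept probes) and mostly higher with miR-552-3p (17 higher and 4 lower, 48.8%, beside 30.9%). With miR-608 PPAN was at -0.83, NOP2 between -0.45 and -0.34 by its 3 probes and BYSL at -0.34. With miR-552-3p NOP16 was at 0.84 and 0.91 by its probes, NOLC1 at 0.86 and WDR12 at 0.62 and 0.47. Between the mimics 25 of 43 probes differed (58.1%, beside 36.5% of all kept probes), 5 higher and 20 lower with miR-608. Of 25 probes for RNA polymerase I, which transcribes ribosomal RNA, and its factors, 2 were higher and 7 lower with miR-608 (36%) and 7 higher and 4 lower with miR-552-3p (44%). The probes of its subunit POLR1D disagreed with miR-552-3p. ILMN_1742427 changed by -0.91 ± 0.09 and -1.89 ± 0.09 in the same order of mimics (adjusted p = 0.00314 and 0.000997), and ILMN_1767422 by -0.40 ± 0.08 (adjusted p = 0.0185) and by -0.07, which was not called. The subunit POLR1G changed by 1.27 ± 0.11 with miR-552-3p (adjusted p = 0.0019).

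On the mitochondrial side, 2 of 29 probes for translation and assembly factors were higher and 4 lower with miR-608 (20.7%, beside 28.4% of all kept probes), among them the assembly GTPase ERAL1 at -0.67. With miR-552-3p 3 were higher and 5 lower (27.6%, beside 30.9%), among them the mitochondrial DNA packaging factor TFAM at -0.48. The assembly GTPase MTG1 was detected on neither miR-552-3p array and was at least 2.06-fold lower there than in the control (adjusted p = 0.00113), the bound being set, on each of those arrays, by the higher of its own level and the lowest level of a detected probe. The 3 probes of the recycling factor MRRF did not move alike. ILMN_1680675 was called with both mimics, at -0.41 and -0.45. ILMN_2298958 was at -0.06, not called, and at -0.76, called, and ILMN_2415949 was called in neither, at -0.21 and 0.04. Of 16 probes for mitochondrial aminoacyl-tRNA synthetases 0 were higher and 5 lower with miR-608 (31.2%), with LARS2 at -1.05 ± 0.08 (adjusted p = 0.00224) and HARS2 at -0.74, and 1 was higher (MARS2, 0.54 by 1 of 2 probes) and 2 lower (AARS2, -0.68, and SARS2, -0.40) with miR-552-3p (18.8%). Of 13 probes for factors that act on ribosomal protein genes, 1 was higher and 5 lower with miR-608 (46.2%) and 5 higher and 3 lower with miR-552-3p (61.5%). The RNA polymerase III repressor MAF1 changed by -0.91 and -1.38 and the coactivator PPRC1 by -1.28 and -0.59, all of them called. MYC, which drives ribosome production, was read by a pair of probes. In the order miR-608 and miR-552-3p, ILMN_2110908 was called at -0.37 and at 0.38, and ILMN_1680618 was at -0.04, not called, and at 0.61, called.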

How the data were processed

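RNA of 6 samples, 2 per group, was measured on Illumina bead arrays. The authors deposited the signal intensity of each probe on a linear scale with a detection p-value. The submitters' processing notes name GenomeStudio 2011.1. The authors also deposited log2 values for 17751 probes, of which 218 are members. These deposited log2 values served as an alternative only. A background subtraction by the authors is neither stated nor denied in the labels.

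From the signals, neqc of limma 3.58.1 (R 4.3.3) took off background, added an offset of 16, made the quantiles equal and gave log2 levels. A probe was kept where its detection p was below 0.05 on 2 or more arrays, which held for 20749 and left out 26570. Each probe was fitted on its own with lmFit and eBayes over all 6 arrays, with 3 residual and 5.18 total degrees of freedom, tests on both sides, p-values adjusted over all kept probes by Benjamini-Hochberg, and a threshold of 0.05. Errors are SEs of the fit with 2 arrays per group. The offset makes the fold changes of dim probes smaller, and the number of arrays limits the precision. Symbols come from the platform annotation, and all 237 entries matched the RefSeq gene table with 0 changed.

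The members and lists were chosen with earlier results of these data known. The rule for named members took, per comparison and subunit, up to 3 called probes with the largest rise and 3 with the largest fall among groups that do not overlap, then copies with their parent genes, genes with probes called in opposite directions and genes with no detected probe, and up to 3 genes of each list with the smallest p. Other members are named only as further probes of these genes, for calls with both mimics or for values chosen after they were seen (RPL6, RPL12, MRPL12, MRPL38, MRPS12, MRPS27, MRPL20-AS1 and MYC among them). The NRF1 motif that was planned for the promoters is not reported. Seed sites in the members' messages and protein identity of copies were planned and not run, because no transcript or protein sequences were used here. Same-numbered arrays were checked for pairing. The correlations of their replicate differences were 0.026, -0.022 and -0.00041, so no shared shift was seen after normalization. The check cannot tell whether same-numbered arrays were handled together, and the main fit did not pair them.

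The steps were tested on simulated data. Alternatives were no background correction, an offset of 50, median scaling, the deposited log2 values, detection on all 6 arrays, no detection filter, an intensity trend in eBayes, a replicate block, 1 probe a gene, only the 2 groups compared, and each array left out in turn.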

Additional observations from a re-analysis of the deposited data

How the results depend on the processing

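No called difference of a named member probe changed sign under an alternative, and class medians near 0 did. In the order miR-608 against control, miR-552-3p against control and miR-608 against miR-552-3p, the cytosolic calls (15, 14 and 19) became 23, 22 and 29 with the deposited log2 values, 29, 27 and 38 with an intensity trend and 5, 9 and 11 with 1 probe a gene. Without a detection filter the first and second became 9 and 6, and under median scaling the second became 29. The mitochondrial calls (19, 23 and 28) became 43, 43 and 47 with an intensity trend and 7, 7 and 18 without a detection filter. The first became 29 where background was not corrected, 30 where detection was asked on all 6 arrays and 11 with only the 2 groups compared, and with the deposited log2 values the first and second became 33 and 35. The fit with the replicate block gave 12, 9 and 19 cytosolic and 12, 16 and 23 mitochondrial calls. For the first and second, calls over all kept probes (5893, 6403 and 7566) became 3617 and 4249 without a detection filter. They became 7776 and 8069 with an intensity trend. Under median scaling the median log2 fold changes became 0.063, 0.22 and -0.14 (cytosolic) and 0.081, 0.18 and -0.11 (mitochondrial). With 1 array left out in turn the cytosolic calls ranged from 3 to 10, 4 to 10 and 10 to 17, the mitochondrial ones from 5 to 11, 6 to 17 and 11 to 25, and those of all kept probes from 2664 to 4880, 3472 to 5668 and 4837 to 6714. The medians then ranged from -0.066 to -0.033, -0.012 to 0.0032 and -0.038 to -0.018 (cytosolic) and from -0.039 to 0.018, -0.017 to 0.0042 and -0.063 to -0.031 (mitochondrial). A fit with 1 array of a group left assumes that it varies like the other groups. Under median scaling the calls between the mimics were 6 higher and 21 lower (cytosolic), 8 and 24 (mitochondrial) and 3569 and 4073 (all kept probes). Of the calls, those that held under each alternative that tested them were 2, 4 and 8 cytosolic and 3, 5 and 10 mitochondrial.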
